A study of Mus musculus with 72 samples.

Results

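The 6 libraries described here hold the junctions of a Cas9 break on chromosome 8 in aphidicolin-treated neural progenitor cells, 3 with and 3 without ART558, an inhibitor of DNA polymerase theta. They were chosen by their labels alone, as the chromosome 8 bait libraries of the inhibitor collection treated with aphidicolin or with aphidicolin plus ART558, and are 6 of the 60 samples with a file (72 in all). The collection has 31 libraries over 3 baits (chromosomes 6, 8 and 12). The method, LAM-HTGTS, maps the translocations of a chosen break by linear amplification and sequencing: it reads outward from a primer beside the break (the bait) into whatever sequence it was joined to (the prey).

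Every group came from one mouse line, Nxp010, neural progenitors derived from ES cells of genotype NestinCre+Xrcc4-/-p53-/-, in which Cre stands under a Nestin promoter and Xrcc4 and p53 are missing from controls and treated cells alike. The bait was cut by Cas9 and a guide delivered by nucleofection. Aphidicolin was given at 0.5 µM over the first 72 h and at 0.25 µM over the last 24 h. ART558 was given alongside it at 5 µM and then 2.5 µM over the same intervals. Libraries with DMSO (n = 3) or ART558 alone (n = 3) served as background. The labels do not say whether replicates were separate cultures, and the study calls its repeats technical in one place and independent biological replicates in another, so p-values measure the spread between libraries, which may be technical. A junction library carries no expression values, so the labelled cell type could not be checked against markers.

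Xrcc4 is the partner of DNA ligase IV in non-homologous end joining, and cells without it rely on alternative joining of ends. Polymerase theta carries out much of this alternative joining: it anneals short stretches shared by the resected ends (micro-homology), extends them, and can copy a nearby stretch into the junction as a templated insertion. Aphidicolin slows replicative polymerases and raises breakage in long neural genes, the recurrent DNA break clusters (RDCs), which a bait break can capture as prey.

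The break lies between genes, in GRCm38 (mm10), with BC030500 as the nearest protein-coding gene, 563405 bp away. The guide matches the minus strand at chr8:59477698-59477720, and Cas9 is expected to cut after base 59477703. The guide and the first bases past the cut are shown because the deletions below are read against them. The guide has its PAM in capitals. The bait runs on the plus strand from the first base of the nested primer to the cut and is 129 bp when full-length. The stretch past the cut is chr8:59477704-59477763, plus strand.
guide of the chr8 bait: gtcgaccatatgctaatcttAGG
first bases past the cut: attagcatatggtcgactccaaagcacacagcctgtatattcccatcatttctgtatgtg

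The aphidicolin libraries, replicates 1 to 3 in that order throughout, held 7886, 11430 and 7335 junctions on placed chromosomes. The aphidicolin plus ART558 libraries held 949, 8516 and 7036, which makes 43152 in all. Replicate 1 of the combined treatment is the smallest of the 6, and 3 junctions, the most that a count of 0 allows, are 0.316% of it against at most 0.0426% of any other. Its junctions were also the most repeated: 79.6% were the first with their position, strand and bait end, against 85.8% and 93.0% in the other two of its group and 96.9% to 97.7% with aphidicolin. Where leaving it out changed whether the groups overlapped, turned a direction or moved a ratio by over 1.5 times, the value without it is given. All 3 aphidicolin libraries were read on one sequencing run, replicate 1 of the combined treatment on another and its replicates 2 and 3 on another again, so the run and ART558 cannot be told apart on this bait.

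With 3 libraries against 3, the two-sided exact permutation test over libraries cannot go below p = 0.1, which is its value for every measure below whose groups are said not to overlap. Without the smallest library, 3 against 2, the smallest exact p is 0.2. By this test no comparison of this size can reach 0.05, and the text gives the values, their SD and whether the groups overlap.

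A larger share of junctions joined other chromosomes with ART558 added. Translocations, here prey on any other placed chromosome, made up 17.1%, 18.1% and 18.5% of junctions with aphidicolin and 35.7%, 53.6% and 56.3% with ART558 added. The groups did not overlap, and the smallest library was the lowest of its group. The means were 17.9% ± 0.749 (SD, n = 3) and 48.6% ± 11.2 (SD, n = 3), 2.71-fold apart (exact permutation p = 0.1). Without the smallest library the second mean was 55.0% ± 1.94 (n = 2). The background was 6.49%, 6.92% and 7.02% in DMSO and 31.6%, 43.5% and 21.1% with ART558 alone, the last from a library of 133 junctions.

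The junctions on chromosome 8 were sorted by side, prey direction and distance from the cut. Of the 9 classes, 5 (55.6%) were lower with ART558 without overlap and 1 (11.1%), the translocations, was higher (p = 0.1 each by the exact permutation test, 0.15 after Benjamini-Hochberg adjustment over the 9). Without the smallest library 7 (77.8%) were lower and 1 (11.1%) higher. Since these are shares of a total, a rise in one class lowers the others, and absolute rates per cell were not measured. Over the junctions on chromosome 8 alone, a total chosen after seeing these values, 3 of the 8 remaining classes were lower and 3 higher without overlap. Without the smallest library 4 were lower and 4 higher by that total. There deletions of 200 bp to 10 kb still differed by -29.1 points, bait-side junctions facing away from the break were 19.2 points higher, and those beyond 1 Mb were 2.90 points higher with overlap and apart without the smallest library. Deletions of 200 bp to 10 kb, in which the prey lies past the break in the bait's direction, were the class that lost most: 35.7%, 35.0% and 36.2% with aphidicolin, 9.38%, 6.49% and 6.31% with ART558 added. The means of 35.6% ± 0.62 and 7.39% ± 1.72 (SD, n = 3) were 4.82-fold apart, and in DMSO this class held 55.8% ± 0.453 of junctions.

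Inversions past the break within 10 kb, which join the bait to a prey facing the other way, fell further in proportion. They made up 4.57%, 4.25% and 4.09% of junctions with aphidicolin and 0.527%, 0.376% and 0.171% with ART558 added. The ratio of the means was 12.03 without overlap, and 15.8 without the smallest library. Between 200 bp and 1 kb this class held 1.496%, 1.34% and 1.64% of junctions against 0%, 0.0587% and 0%, where a count of 0 allows up to 0.316% in the smallest library and 0.0426% in replicate 3. Deletions of 10 kb to 1 Mb (1.88% ± 0.0996 against 0.519% ± 0.272) and inversions of 10 kb to 1 Mb (0.388% ± 0.143 against 0.146% ± 0.0576) were lower too, without overlap. The inversions overlapped over chromosome 8 junctions alone, at 0.627%, 0.288% and 0.502% against 0.328%, 0.278% and 0.228%, and the smallest library held under 3 of them. Without that library they were lower without overlap, if narrowly. Junctions on chromosome 8 more than 1 Mb away went from 5.78% ± 0.337 to 4.94% ± 0.285.

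Deletions under 200 bp depended on the smallest library and on the total. Their shares of all junctions were 11.2%, 10.8% and 11.5% with aphidicolin and 20.5%, 9.22% and 8.67% with ART558 added, so the groups overlapped and the difference of means, 1.61 points, turned to -2.26 points without replicate 1, lower without overlap. Of chromosome 8 junctions alone they were 13.5%, 13.2% and 14.2% against 31.97%, 19.9% and 19.9%, higher without overlap with and without that library. Junctions on the bait side that face toward the break went the same way, at 3.02%, 3.37% and 3.41% of all junctions against 5.90%, 2.54% and 2.27%, which turned to -0.86 points without replicate 1. Of chromosome 8 junctions they were 3.64%, 4.11% and 4.18% against 9.18%, 5.47% and 5.21%, higher without overlap either way. Junctions on the bait side facing away from the break, at 20.6%, 20.1% and 18.2% against 22.9%, 21.8% and 20.4%, overlapped between the groups with and without it.

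**Figure D1:**
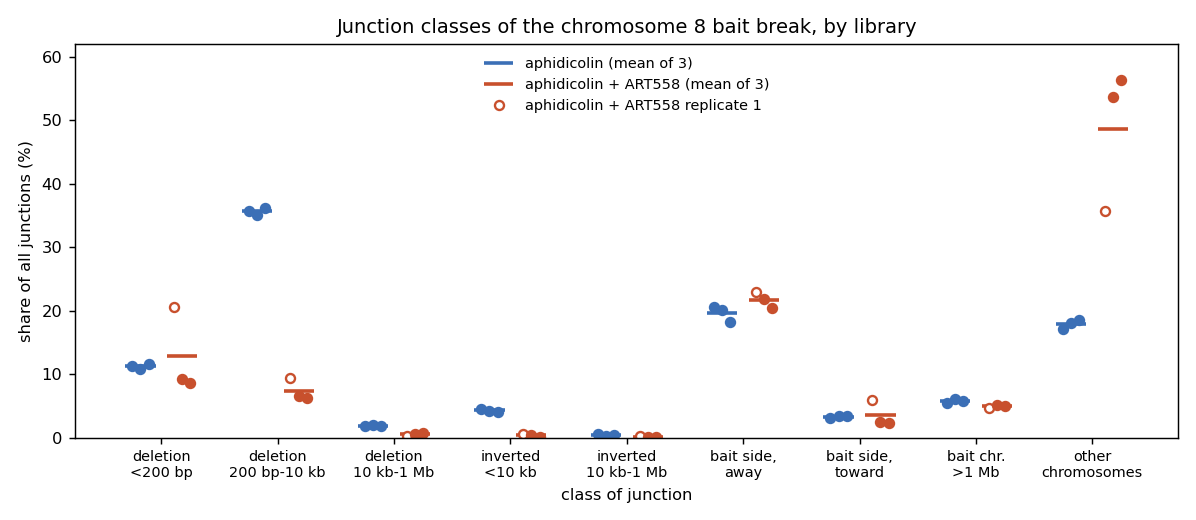
Share of all junctions (%) in each of 9 classes for the 3 aphidicolin libraries (blue) and the 3 aphidicolin plus ART558 libraries (orange), with a bar at the mean of 3; the open circle is the smallest library. Deletions of 200 bp to 10 kb fall from about 35.6% to 7.39% and prey on other chromosomes rises from 17.9% to 48.6%.

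Finer distance bins were counted as shares of all junctions, and not over chromosome 8 junctions alone. Prey past the cut in the bait's direction and under 50 bp from it made up 6.28%, 5.97% and 6.69% of junctions with aphidicolin and 15.8%, 7.33% and 7.28% with ART558 added. Here the ART558 libraries were all higher, by little in replicates 2 and 3. From 50 to 200 bp the order turned, with 4.96%, 4.86% and 4.85% against 4.74%, 1.89% and 1.39%, a ratio of 1.83, or 2.98 without the smallest library. From 200 bp to 1 kb the shares were 12.8%, 12.2% and 13.5% against 3.899%, 1.75% and 2.22%, and from 2 to 5 kb 10.9%, 11.1% and 10.6% against 2.21%, 2.33% and 2.00%.

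The bait side gave another picture. Prey facing away from the break at 2 to 5 kb rose from 5.36%, 5.46% and 5.02% of junctions to 7.17%, 7.86% and 7.32%, a ratio of 1.41, and the bins of 1 to 2 kb and 5 to 10 kb were higher as well, all without overlap. At 10 to 100 kb the same class was lower as a share of all junctions, 2.88%, 3.16% and 2.60% against 1.26%, 2.11% and 1.96%. Chromosome 8 junctions were themselves a smaller part of that total with ART558. The bins were not counted over them alone, so the direction of a bin may depend on the total. Over the 36 bins of distance, side and direction, 20 (55.6%) were lower and 5 (13.9%) higher without overlap (exact permutation p = 0.1 each, 0.144 adjusted over the 36), and without the smallest library 26 (72.2%) were lower and 5 (13.9%) higher.

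**Figure D2:**
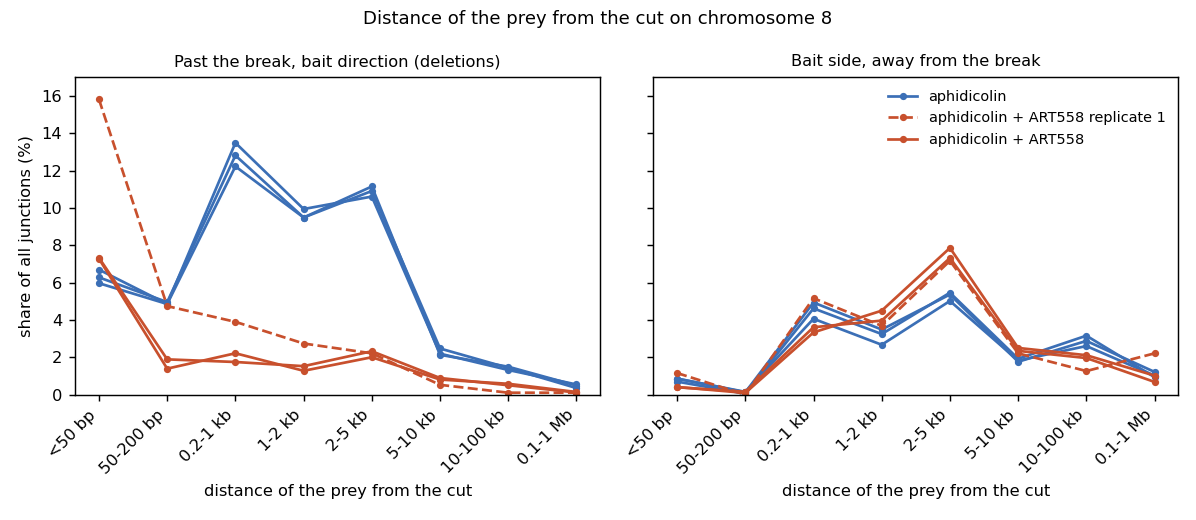
Share of all junctions (%) by distance of the prey from the cut, in 8 bins, 1 line per library (blue, aphidicolin; orange, aphidicolin plus ART558; dashed, the smallest library). Past the break the ART558 lines lie above aphidicolin only under 50 bp and far below it from 200 bp to 5 kb; on the bait side they lie above it from 1 to 10 kb.

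The deletions that remained were shorter. The median deletion up to 1 Mb was 1040.5 bp, 1087 bp and 999 bp with aphidicolin and 73 bp, 113 bp and 113 bp with ART558 added, 10.5-fold apart without overlap. In DMSO it was 796 bp ± 16.8 (SD, n = 3). Within deletions under 200 bp the prey end lost 61.4 bp, 61.4 bp and 59.6 bp on average against 36.1 bp, 32.1 bp and 30.1 bp, while the bait end lost 21.5 bp, 21.2 bp and 22.1 bp against 28.0 bp, 33.9 bp and 33.6 bp. The 2 ends of the break thus moved in opposite directions in the same junctions, the groups overlapping in neither. The share whose prey end lost 50 bp or more fell from 43.4% ± 1.34 to 18.3% ± 2.84.

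The 5 most frequent deletion junctions, by bait end and prey position, were each found in all 6 libraries and are shown with the micro-homology in capitals, so that the bait reads into it from the left and the prey continues to the right (plus strand).
deletion junction 1: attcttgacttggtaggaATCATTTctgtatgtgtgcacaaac
deletion junction 2: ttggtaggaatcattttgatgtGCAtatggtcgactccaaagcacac
deletion junction 3: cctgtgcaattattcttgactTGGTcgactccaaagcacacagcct
deletion junction 4: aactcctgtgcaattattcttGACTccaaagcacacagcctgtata
deletion junction 5: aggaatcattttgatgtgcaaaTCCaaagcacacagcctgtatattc

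Their micro-homologies are 7, 3, 4, 4 and 3 bp, and they delete 73, 20, 46, 55 and 28 bp. The junction with 7 bp was seen 1, 3 and 2 times with aphidicolin and 4, 4 and 4 times with ART558 added. The junction with 3 bp that deletes 20 bp was seen 2, 2 and 2 times against 2, 5 and 3 times. The libraries carry no molecular identifiers, so these counts do not measure how often a junction formed, and the 5 are shown for their sequence.

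Micro-homology in translocations was shorter with ART558 added. Micro-homology is the number of bases that bait and prey alignments share, 0 bp being direct joining, over junctions with 0 to 10 bp. Direct joining made up 18.4%, 18.3% and 17.9% of translocations with aphidicolin and 27.8%, 31.2% and 31.1% with ART558 added. The means of 18.2% ± 0.254 and 30.04% ± 1.97 (SD, n = 3) did not overlap and were 1.65-fold apart, 1.71-fold without the smallest library. Background values were 12.3%, 13.3% and 17.3% in DMSO and 28.9%, 28.5% and 27.3% with ART558 alone. Mean micro-homology was 2.44, 2.48 and 2.54 bp against 2.01, 1.92 and 1.88 bp.

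By length, 0 and 1 bp were higher with ART558 (2 of 11 lengths, 18.2%) and 2, 3, 4, 5 and 7 bp lower (5 of 11, 45.5%) without overlap (exact permutation p = 0.1 each, 0.157 adjusted over the 11). Without the smallest library 6 bp was lower too (6 of 11, 54.5%). Micro-homologies of 4 to 10 bp together made up 25.04%, 25.7% and 27.6% of translocations with aphidicolin and 19.6%, 18.7% and 17.9% with ART558 added. The lengths of 8, 9 and 10 bp overlapped between the groups and held under 3% each in every library.

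Deletions on chromosome 8 did not follow the translocations at the long end. Among deletions under 1 Mb, micro-homologies of 4 to 10 bp made up 17.9%, 17.01% and 17.2% with aphidicolin and 23%, 24.1% and 22.2% with ART558 added, higher without overlap where the translocations were lower. Direct joining was higher in both, in deletions at 10.4%, 11.8% and 10.0% against 12%, 17.8% and 15.7%. These deletions are pooled over sizes, whose median differed between the groups, and direct joining is not given by size here. What fell in deletions was 2 bp, from 32.4% ± 0.175 to 25.05% ± 4.38, and 3 bp, from 19.6% ± 1.33 to 15.3% ± 0.784. Of the 11 lengths, 5 (45.5%) were higher and 2 (18.2%) lower without overlap, and without the smallest library 8 (72.7%) were higher and 2 (18.2%) lower. Mean micro-homology of deletions overlapped, at 2.31 bp ± 0.0445 and 2.35 bp ± 0.0201.

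The difference at 4 to 10 bp was seen in both sizes of deletion examined, those under 200 bp and those of 200 bp to 10 kb. Under 200 bp it was 8.49%, 8.11% and 10.4% against 23.1%, 16.7% and 13.6%, and from 200 bp to 10 kb 20.1%, 18.3% and 18.8% against 22.7%, 31.6% and 31.6%. DMSO deletions under 1 Mb had 12.7% ± 0.629 (SD, n = 3), below both groups. Junctions on the bait side facing away from the break overlapped in this measure, at 24.9%, 24.6% and 25.9% against 24.8%, 26.1% and 27.0%, and were higher with ART558 without the smallest library. Whether the change in deletions and that in translocations differ was not tested.

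**Figure D3:**
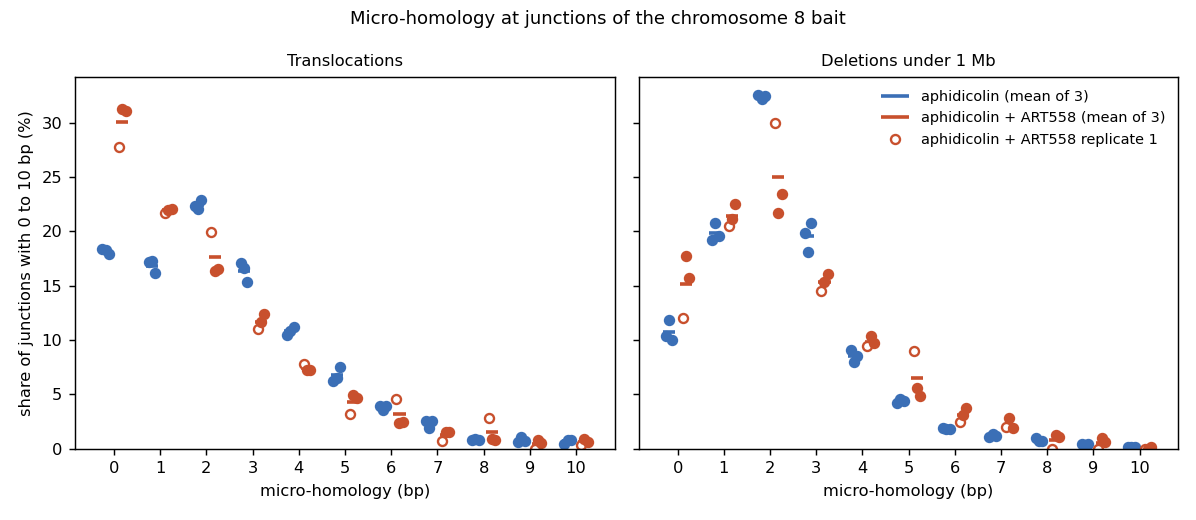
Share (%) of junctions with 0 to 10 bp of micro-homology at each length, for translocations (left) and deletions under 1 Mb on chromosome 8 (right); points are libraries, bars means of 3, and the open circle is the smallest library. At 0 bp ART558 lies above aphidicolin in both panels, while from 4 to 7 bp it lies below it in most translocation lengths and above it in deletions.

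Insertions, bases between bait and prey that neither alignment covers, were more frequent with ART558 in the 5 classes examined, without overlap. In translocations they were in 12.3%, 12.2% and 11.9% of junctions against 16.2%, 16.6% and 14.2%. The rise lay in insertions of 10 bp and more, at 3.27%, 3.33% and 4.04% against 6.49%, 7.45% and 6.56%, while those of 1 to 9 bp overlapped at 8.61% ± 0.645 and 8.81% ± 1.10. DMSO translocations had insertions in 12.5% ± 0.647.

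Near the break the difference was larger. Deletions under 200 bp held insertions in 24.3%, 29.3% and 27.6% with aphidicolin and 31.3%, 52.7% and 47.0% with ART558 added. Deletions of 200 bp to 10 kb held them in 16.96%, 17.5% and 17.8% against 23.6%, 43.4% and 36.3%, and bait-side junctions facing away from the break in 16.7%, 18.9% and 18.0% against 37.8%, 42.0% and 39.6%. In the deletions the smallest library was the lowest of its group.

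While insertions were more frequent, a smaller share of them was copied from beside the junction. An insertion of 10 bp or more was called templated where the whole insert was found, on either strand, in the 100 bp of genome on either side of the bait cut or of the prey junction. Such inserts were 30.5%, 24.6% and 25.6% of insertions of 10 bp or more with aphidicolin and 6.06%, 4.25% and 2.54% with ART558 added, without overlap. The means of 26.9% ± 3.14 and 4.28% ± 1.76 (SD, n = 3) were 6.28-fold apart, 7.92-fold without the smallest library. In DMSO they were 37.6% ± 0.146, and with ART558 alone 6.57%, 8.40% and 0% of 213, 238 and 11 insertions.

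Most templated inserts in the aphidicolin libraries were inverted copies of the bait locus. These were 54 of 256, 69 of 378 and 47 of 219 insertions with aphidicolin (21.1%, 18.3% and 21.5%) and 4 of 99, 11 of 964 and 5 of 670 with ART558 added (4.04%, 1.14% and 0.746%). The groups did not overlap, and the 95% Wilson interval of the smallest library ran from 1.58% to 9.93%. Per 1000 junctions there were 6.85, 6.04 and 6.41 inverted copies against 4.21, 1.29 and 0.711, also without overlap. Without the smallest library the ratio of the means was 21.5 among insertions, in place of 10.3, and 6.42 per 1000 junctions, in place of 3.10. Copies in the bait's own direction were a lower share of insertions, 4.15% ± 0.441 against 1.17% ± 0.246, but per 1000 junctions they overlapped, at 1.39, 1.49 and 1.09 against 1.05, 1.64 and 0.995. Copies from beside the prey overlapped as a share of insertions, at 2.46% ± 2.37 and 1.14% ± 0.47.

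The 5 most frequent inserts all copy one place. They begin at the same base, 11 bp from the cut, and run back along the bait on the minus strand for different lengths, the longest being the reverse complement of chr8:59477673-59477692. The template is in capitals in the last 60 bases of the bait (plus strand, chr8:59477644-59477703), and the inserts are written as they stand in the reads.
last bases of the bait: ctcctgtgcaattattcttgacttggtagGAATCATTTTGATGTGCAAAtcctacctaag
insert 1: TTTGCACATCAAAATGATTC
insert 3: TTTGCACATCAAAATGATT
insert 2: TTTGCACATCAAAATGAT
insert 5: TTTGCACATCAAAATG
insert 4: TTTGCACATCAAAAT

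The longest of the 5, 20 bp, was found 1, 3 and 4 times with aphidicolin and in no combined library. Only insert 2 occurred with ART558 added, with 2 copies in replicate 3. The 5 were chosen by their counts over these same 6 libraries, which came mostly from aphidicolin. Their split between the groups is therefore a description only. Inserts that begin with the first 8 bases of this copy, TTTGCACA, numbered 21, 16 and 19 with aphidicolin and 0, 2 and 2 with ART558 added. In DMSO there were 67, 61 and 58, and with ART558 alone none in 3 libraries. The start was taken up after the inserts had been seen, so its counts are a description. For the smallest library the 0 of 99 allows a share of up to 3.03%.

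Insertions with no template near either end rose instead. Per 1000 junctions there were 22.6, 24.9 and 22.2 with aphidicolin and 98.0, 108 and 92.8 with ART558 added, 4.29-fold apart without overlap. The base composition of all inserts of 10 bp or more, templated ones included, moved little, at 35.4% ± 0.964 and 36.4% ± 2.43 G or C, and the groups overlapped. That of the inserts without a template was not measured apart. Inserts of 20 bp or more were then looked for whole, by exact match, in the placed chromosomes, a search chosen after seeing these values. Unplaced scaffolds and the delivered Cas9 and guide plasmid were not searched. The inserts were found within 1 kb of the bait cut in 33.8%, 22.9% and 28.6% of cases against 2.63%, 0.296% and 0%. This search did not find 55.9%, 53.3% and 58.6% of them against 89.5%, 83.1% and 82.5%. Matches elsewhere on the placed chromosomes overlapped, at 9.88% ± 5.41 and 13.2% ± 4.59, and without the smallest library they were higher with ART558, at 15.8%.

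**Figure D4:**
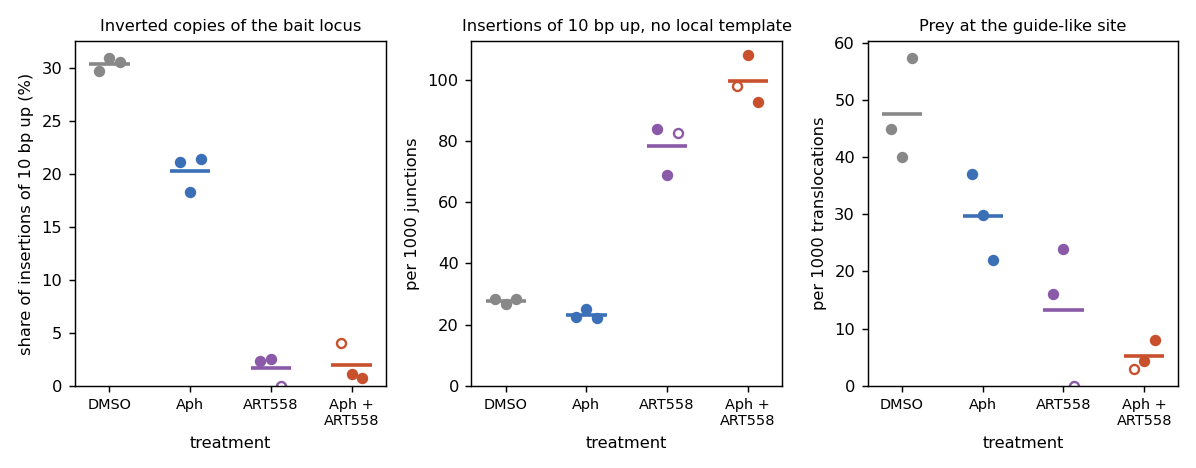
Inverted copies of the bait locus among insertions of 10 bp up (%), insertions of 10 bp up without a local template per 1000 junctions, and prey at the guide-like site on chromosome 14 per 1000 translocations, for DMSO, aphidicolin, ART558 and both (n = 3 each, bars are means). Open circles are the libraries of 949 and 133 junctions; both ART558 groups lie below DMSO and aphidicolin in the first panel and above them in the second.

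The bait end was shorter with ART558. Bait length is counted from the first base of the nested primer to the last bait base in the junction, so that 129 bp is full-length. In translocations its mean was 107 bp, 106 bp and 104 bp with aphidicolin and 90.5 bp, 83.1 bp and 84.1 bp with ART558 added. The groups did not overlap, and the means of 105 bp ± 1.32 and 85.9 bp ± 4.03 (SD, n = 3) were 19.5 bp apart, 21.8 bp without the smallest library. In DMSO it was 111 bp ± 0.748. Aligned baits were never under 37 bp, so losses past 92 bp could not be seen.

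The loss lay in the long tail. Baits that lost 50 bp or more were 11.7%, 11.4% and 15.1% of translocations with aphidicolin and 42.8%, 48.0% and 45.4% with ART558 added, 3.56-fold apart. Those that lost 20 bp or more were 48.6%, 52.8% and 56.2% against 70.5%, 83.5% and 82.9%. Baits within 4 bp of the expected cut were 17.7%, 15.7% and 16.2% against 17.1%, 6.40% and 6.99%, which overlap through the smallest library. Without it the second mean was 6.69% ± 0.417 and the groups were apart.

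Shorter baits were not limited to one kind of junction. Deletions of 200 bp to 10 kb had mean baits of 114 bp ± 0.147 against 103 bp ± 1.68, inversions 114 bp ± 0.516 against 91.5 bp ± 6.17, and bait-side junctions facing away from the break 112 bp ± 0.59 against 97.2 bp ± 2.03. Within translocations, those joined directly had 103 bp ± 2.38 against 87.1 bp ± 6.31, those with 5 to 10 bp of micro-homology 105 bp ± 1.57 against 85.4 bp ± 0.729, and those with an insertion 104 bp ± 1.08 against 85.3 bp ± 2.21. In none of these 6 did the groups overlap. Median read length, which could bear on long baits, was 223 bases in each aphidicolin library and 214, 238 and 236 bases with ART558 added, and its part in the result was not tested.

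**Figure D5:**
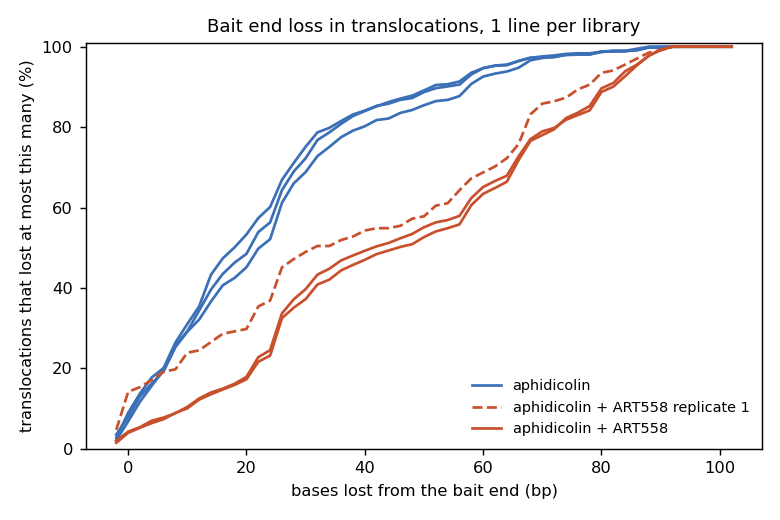
Cumulative share (%) of translocations against the bases lost from the bait end (bp), 1 line per library (blue, aphidicolin; orange, aphidicolin plus ART558; dashed, the smallest library). At a loss of 20 bp the ART558 lines lie well below the aphidicolin lines, and the smallest library starts above the aphidicolin lines and lies below them from 10 bp on.

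Prey location was examined over translocations. By chromosome, 3 of 20 (15%) were lower and 2 (10%) higher with ART558 without overlap (exact permutation p = 0.1 each, 0.4 adjusted over the 20). This count rested on single libraries: without the smallest library 5 (25%) were lower and 5 (25%) higher, and without replicate 3 of either group 8 in all were apart. Chromosome 14 had the largest share with aphidicolin, at 9.73%, 11.1% and 9.26%, and 6.19%, 7.25% and 7.92% with ART558 added. This difference of -2.91 points was -0.193 points, with overlap, without the crowded windows described below. The share within protein-coding genes was 57.5%, 54.1% and 51.8% against 47.5%, 46.5% and 44.5%, also without overlap, and DMSO was at 51.7% ± 0.733. Prey strand overlapped, with 50.7% ± 0.786 and 49.3% ± 1.28 on the plus strand.

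Of the study's RDCs, the 107 whose positions and timing class it lists together were used, 42 in constant timing regions (CTR, replicated as a block) and 65 in timing transition regions (TTR), and 98 of them lie off chromosome 8. Densities were counted in 1 Mb windows centred on the listed positions, as junctions per 1000 translocations per Mb. CTR loci had 1.29, 1.20 and 1.24 with aphidicolin and 0.983, 0.562 and 0.802 with ART558 added. TTR loci had 0.919, 0.655 and 0.798 against 0.600, 0.520 and 0.483. Neither overlapped, and DMSO was lower than both groups in CTR loci, at 0.33 ± 0.183. The direction depends on that total, and translocations were themselves a larger share with ART558. Per 1000 junctions of any class, a total chosen after seeing these values, CTR loci had 0.221, 0.218 and 0.231 per Mb against 0.351, 0.301 and 0.452, and TTR loci 0.157, 0.119 and 0.148 against 0.214, 0.279 and 0.272, both higher with ART558 without overlap.

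Single RDCs off chromosome 8 were thinly covered. Of the 40 with at least 10 junctions over the 6 libraries, 6 (15%) were lower per 1000 translocations and 0 higher without overlap, against 9.84% lower and 3.63% higher of all 193 windows of 1 Mb with as many junctions. Without the smallest library the RDCs were at 7 (17.5%) and 0, and all windows at 11.4% and 16.1%. The median ratio of ART558 to aphidicolin density was 0.405 over the 40 and 0.801 over the 193. The lowest ratios were those of Erbb4, a neuregulin receptor (0, 6 and 3 junctions against 0, 2 and 0), Sdk1, a synaptic adhesion protein (4, 2 and 5 against 0, 1 and 2) and Grm8, a glutamate receptor (4, 1 and 3 against 0, 1 and 2). Of these, Sdk1 did not overlap in density. The highest were those of Mdga2, a neuronal adhesion protein (0, 2 and 0 against 0, 4 and 6) and Naaladl2 (4, 3 and 3 against 5, 2 and 3), and both overlapped. The ratio of Naaladl2, 2.41, fell to 0.271 without the smallest library, and its density was then lower without overlap.

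On chromosome 8 itself all 9 listed RDCs were counted, per 1000 junctions more than 1 Mb from the break on that chromosome (433, 703 and 418 with aphidicolin, 44, 443 and 350 with ART558 added). Together they took 349, 299 and 263 per 1000 against 273, 203 and 217. The groups overlapped through the smallest library, 12 of whose 44 junctions lay in RDCs, and were apart without it, at 304 ± 43.0 against 210.2 ± 9.89. DMSO had 90.0 ± 14.3. A count of 0 in the smallest library allows up to 68.2 per 1000, so its values below say little.

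Csmd1, a large membrane protein of the complement-regulating kind, took most, with 39, 57 and 26 junctions against 8, 35 and 29, or 90.1, 81.1 and 62.2 per 1000 against 182, 79.0 and 82.9. Its groups overlapped. Sgcz, a sarcoglycan, had 22, 29 and 18 junctions against 0, 6 and 12, or 50.8, 41.3 and 43.1 per 1000 against 0, 13.5 and 34.3. The locus listed as 1700019L22Rik had 22, 32 and 15 against 1, 9 and 4. These last loci were lower without overlap, with 2.83-fold and 2.43-fold differences of means, or 1.88-fold and 2.78-fold without the smallest library.

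March1, a membrane ubiquitin ligase, had 11, 15 and 8 junctions against 0, 1 and 3, and Large, a glycosyltransferase of dystroglycan, 9, 17 and 6 against 0, 6 and 5. Both were lower per 1000 without overlap, but Large only barely, at 20.8, 24.2 and 14.35 against 0, 13.5 and 14.29. Tenm3, a teneurin (17, 24 and 12 against 1, 15 and 10), Wwox, which spans a common fragile site (9, 12 and 12 against 0, 10 and 4), Cdh13, a cadherin (20, 20 and 11 against 2, 7 and 7), and the polarity gene Pard3 (2, 4 and 2 against 0, 1 and 2) overlapped. Cdh13 was lower without overlap once the smallest library was left out.

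Translocations piled up in a few 10-kb windows, taken up after their counts had been seen. The window with most, on chromosome 14 at 22760000 to 22769999, had 63, 98 and 50 junctions with aphidicolin and 2, 24 and 39 with ART558 added. It holds a sequence like the guide at chr14:22766299-22766321, minus strand, in an intron of Lrmda, a gene named for melanocyte differentiation (GRCm38, plus strand, 22019712 to 23056085). Counted from 1 at the guide's 5′ end, the differences are G1A, T2G, C3T and T20A, in capitals here, and the PAM is ggg.
guide-like site on chromosome 14: AGTgaccatatgctaatctAggg

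Within 500 bp of this site there were 50, 62 and 30 junctions with aphidicolin and 1, 20 and 32 with ART558 added. Per 1000 translocations that was 37.1, 29.97 and 22.1 against 2.95, 4.38 and 8.07, without overlap and 5.79-fold apart, with 45.01, 40.05 and 57.4 in DMSO. As a share of all junctions the groups overlapped, 0.634%, 0.542% and 0.409% against 0.105%, 0.235% and 0.455%. DMSO had 0.292%, 0.277% and 0.403% by that total, below the aphidicolin values, whereas per 1000 translocations it lay above them. Of the other 42 genome sites with up to 4 mismatches to the guide and an NGG PAM, 40 had no junction in the 6 libraries and the highest had 4.

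Other crowded windows differed among themselves. One on chromosome 6 at 32870000 to 32879999 (Chchd3, a mitochondrial protein) had 11, 6 and 5 junctions against 0, 5 and 1, lower per 1000 translocations without overlap. The window on chromosome 2 at 98660000 to 98669999 (Gm10800 and Gm10801) had 7, 15 and 9 junctions against 3, 108 and 100, higher per 1000 translocations without overlap. That on chromosome 14 at 19410000 to 19419999 (Gm21738) had 5, 18 and 9 against 2, 73 and 88, and that on chromosome 9 at 35300000 to 35309999 (Gm33838) 0, 5 and 1 against 0, 16 and 16, both overlapping per 1000 and higher without the smallest library. These last 3 lie in satellite-rich stretches of this assembly where reads are hard to place. The share of translocations within 2 kb of a transcription start, 3.34%, 4.59% and 5.22% against 1.77%, 7.87% and 7.92%, overlapped and was higher without the smallest library, and its difference of 1.47 points turned to -0.255 points without the crowded windows. The share within genes kept its direction without them, with a difference of -7.20 points against -8.30 points with them.

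The same treatments were given at other baits of this collection. At the chromosome 12 bait (2 aphidicolin and 3 combined libraries) direct joining of translocations went from 29.5% ± 0.848 to 35.2% ± 1.29, a difference of 5.73 points against 11.8 points at chromosome 8. A permutation of the bait labels within treatment, over all 200 arrangements and on the residuals left by additive terms for bait and treatment, gave p = 0.01 for that difference of differences. Mean bait length fell by 5.82 bp at chromosome 12 and by 19.5 bp at chromosome 8 (permutation p = 0.005, the smallest that 200 arrangements allow). The rise in insertions was 0.47 points at chromosome 12 and 3.49 points at chromosome 8 (permutation p = 0.015), and that in translocations 23.6 and 30.6 points (permutation p = 0.33, and 0.01 without the smallest library). Leaving out 1 library raised the permutation p of direct joining to 0.05 without chromosome 8 aphidicolin replicate 2 or 3. That of insertions rose to between 0.05 and 0.0625 without any one chromosome 8 aphidicolin library, chromosome 12 aphidicolin replicate 2, or chromosome 12 combined replicate 1 or 3. That of bait length stayed between 0.01 and 0.0375. The chromosome 12 bait is itself 132 bp long when full-length and stood at 83.6 bp ± 0.205 with aphidicolin alone. At the chromosome 6 bait, with 1 aphidicolin library, direct joining was 23.6% with aphidicolin and 31.6%, 32.4% and 28.9% with ART558 added, and no test was made. Mean bait length there was 79.03 bp against 77.9, 76.5 and 77.2 bp, translocations were 40.3% of junctions against 46.9%, 46.0% and 58.1%, and insertions were in 19.2% of translocations against 18.4%, 22.5% and 33.9%, the aphidicolin share of insertions lying within the range of the others. Run and ART558 cannot be told apart at chromosome 12 either, where aphidicolin and combined libraries were read on different runs, whereas at chromosome 6 all 4 were read on one run.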

How the data were processed

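Per the labels and the study's methods, the authors demultiplexed reads, aligned them to mm10 (GRCm38) with Bowtie2 and deposited tables with 1 row per junction; tool versions are not given in the sources used here. The deposited values are coordinates and alignment positions, with no normalization, counts or molecular identifiers, so intervals and floors cover counting error only. No column of another sample was used. Micro-homology was the overlap of bait and prey alignments on the read, negative for an insertion. Junctions on unplaced scaffolds were left out. Insertions in the files end at 30 bp, and repeated junctions were kept as deposited. Groups came from the sample labels. Annotation was GENCODE vM21.

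Percentages were computed per library and compared over libraries with the two-sided exact permutation test (SciPy 1.17.1, pandas 2.3.3, Python 3.11.15). Wilson intervals are at 95%, and a count of 0 allows 3 counts. Class rules, tests and window counts were tested on simulated data. Named RDCs are all those on chromosome 8 and, of those off it with at least 10 junctions, the 3 lowest and 3 highest ratios, of which 1 is not reported here. The 5 most frequent deletion junctions and inserts were shown by the same kind of rule. Members, lists and tests were chosen with earlier results of these data known. Alternatives left out each library, paired replicates by number, counted repeated junctions once, and changed windows, flanks, limits and denominators.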

Additional observations from a re-analysis of the deposited data

Results flagged for a closer look

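Results that differed between the chromosome 8 and chromosome 12 baits, by the permutation of bait labels within treatment on residuals of additive bait and treatment terms, were 3 of the 4 compared. The effect of ART558 on direct joining of translocations was 6.12 points larger at chromosome 8 (permutation p = 0.01, and 0.05 without chromosome 8 aphidicolin replicate 2 or 3). Its effect on mean bait length differed by -13.7 bp, a stronger shortening at chromosome 8 (permutation p = 0.005). Its effect on the share of translocations with an insertion was 3.02 points larger at chromosome 8 (permutation p = 0.015, and 0.05 to 0.0625 without any one of the chromosome 8 aphidicolin libraries, chromosome 12 aphidicolin replicate 2, or chromosome 12 aphidicolin plus ART558 replicate 1 or 3). The direction was the same at both baits in all 3. The 2 aphidicolin groups started from different values, 18.2% and 29.5% for direct joining and 105 bp and 83.6 bp for bait length, and the part of this in the difference was not tested. At both baits run and ART558 cannot be told apart. With 3 libraries a group, none was tested for a library standing apart.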

How the results depend on the processing

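Over 53 results and 481 alternatives, 462 kept direction and side of the threshold. For 3 libraries against 3 this speaks of direction only, since the exact permutation test cannot reach 0.05 at that size. The 462 include the 46 that paired replicates by number, which could change neither. Leaving out aphidicolin plus ART558 replicate 1 turned the difference in deletions under 200 bp to -2.26 points and that in bait-side junctions toward the break to -0.86 points, within ranges of -2.26 to 3.68 and -0.86 to 0.954 points as each library was left out. Counted over chromosome 8 alone, an alternative chosen after seeing the data, junctions beyond 1 Mb were 2.90 points higher with ART558, not lower, and without the crowded windows, chosen likewise, prey near a transcription start differed by -0.255 points and the chromosome 14 share by -0.193 points (-2.91 with them). Chromosomes without overlap were 5, and 5 to 10 when a library was left out (8 without aphidicolin replicate 3 or aphidicolin plus ART558 replicate 3, 10 without replicate 1 of the latter). Non-overlapping classes were 6 to 8 and micro-homology lengths 7 to 8.

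Leaving out 1 library each gave ranges of 26.7 to 37.1 points for translocations and 11.2 to 12.99 for direct joining. Between baits, leaving out 1 library gave 5.43 to 7.26 points for direct joining (permutation p up to 0.05), 2.19 to 3.85 for insertions (p up to 0.0625) and 3.14 to 13.4 for translocations (permutation p = 0.01 without the smallest library, the 13.4). The bait length difference stayed between -16.0 and -12.3 bp.

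Full-length baits differed by -6.40 points, and by -14.99 points when counted within 9 bp of the cut. RDC density differed by -0.339, by -0.660 in windows of 0.5 Mb and by -0.175 in windows of 2 Mb. Per 1000 junctions of any class, chosen after seeing the data, it turned to 0.126, with 0.145 in CTR and 0.114 in TTR loci. The limit of 30 bp on insertions changed nothing, since the files hold none longer.

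With the replicate number as a block, 3 pairs cannot go below an exact p of 0.25, which 43 of 46 results reached. Translocations, at 30.6 points, kept their direction in every pair, which any pairing of groups that do not overlap must give. The mean of the paired differences equals the difference of means, and neither test can reach the threshold at this size. The block could therefore change neither direction nor call, and is no check of either. Same-numbered libraries correlated at 0.239, 0.179 and 0.031 in their deviations over 41 features, so the numbers are not shown to pair samples. All 3 pairs moved one way in 7 classes, 8 micro-homology lengths and 7 chromosomes. Depth limits chiefly the smallest library.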
